A study of Mus musculus with 380 samples.

Results

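Each of 4 plates of sorted mouse T cells held 1 well titled Population beside 94 wells of single cells, and the population wells were set against the single cells of the same plate. The members are therefore 4 population wells out of 380 libraries. Their counterpart is the mean of the single cells in which at least 1000 genes exceeded 1 FPKM, called kept cells below. FPKM counts fragments relative to transcript length and library size, here in the authors' deposited TMM-normalised matrix, where TMM is a scaling that aligns libraries. The kept cells numbered 80 on the KO CD8 plate, 72 on the WT CD8 plate, 73 on the KO CD4 plate and 79 on the WT CD4 plate, and 14, 22, 21 and 15 cells fell short of the gene minimum. The cells came from B16F10 tumours, a transplantable melanoma line, in C57BL/6 mice labelled IL27raKO or wild type, and were sorted as CD8 or CD4 T cells. KO and WT below stand for these labels. The labels' treatment text describes CD8+ T cells alone, although 2 plates are titled as CD4. Ages, the number of animals and the number of cells put into a population well are not given in the labels. Each combination of genotype label and lineage is 1 plate. The p-values below therefore measure the spread among these 4 plates, which the limma tests combine with that of other genes. The titles of the WT CD4 plate carry the tag p2 and those of the other plates p1, and the labels do not say what the tag means.

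A population well and a single-cell well receive the same chemistry, Smart-seq2, which primes polyadenylated RNA with oligo-dT, switches template at the 5′ end and amplifies full-length cDNA by PCR. In 1 cell many transcripts are present in few copies, so a gene can be missed in most cells and still add up over a plate, while a pool of sorted cells carries the transcripts of every cell that entered it. Rare bystanders of a sort from a tumour include macrophages, which engulf debris and express the lysozyme gene Lyz2, plasmacytoid dendritic cells, which make type I interferon and in mouse carry the lectin Siglech, and other antigen-presenting cells with MHC class II and its invariant chain Cd74. CD8 T cells kill through granzymes and perforin, and Gzma encodes granzyme A.

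The sorted lineage was visible in the wells and in the cells. Cd8a (GRCm38 chr6:71373427-71379173, plus strand), the CD8 alpha chain, stood at 1055 and 838 FPKM in the KO and WT CD8 wells and was listed at 0 in both CD4 wells, and its cell means were 541 and 493 FPKM on the CD8 plates and 0.345 and 0.755 FPKM on the CD4 plates. Cd4 (chr6:124864692-124888221, minus strand) had 680 and 700 FPKM in the KO and WT CD4 wells against cell means of 318.1 and 407 FPKM, and 4.36 and 0 FPKM in the KO and WT CD8 wells against cell means of 0.0248 and 5.17 FPKM. Foxp3, which defines regulatory T cells, had 702 and 840 FPKM in the KO and WT CD4 wells against cell means of 465 and 348.6 FPKM, and it was listed at 0 in both CD8 wells. These coreceptor genes and Foxp3 were chosen after their values were seen. All 15 measured genes of the T cell receptor complex exceeded 1 FPKM in every well and in every cell mean. Their summed level was 11604, 12116, 13555 and 13892 FPKM in the KO CD8, WT CD8, KO CD4 and WT CD4 wells, against 6502, 7079, 7438 and 7135 FPKM in the mean cell.

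Il27ra (chr8:84030294-84042589, minus strand), the gene of the labelled knockout, had 85.3 and 72.7 FPKM in the KO CD8 and KO CD4 wells, and 157.02 and 243.4 FPKM in the WT CD8 and WT CD4 wells. Its cell means were 68.3 and 82.5 FPKM on the KO plates and 111.4 and 110.5 FPKM on the WT plates, with 49 and 35 of the KO cells and 47 and 34 of the WT cells above 1 FPKM. Wells and cells both gave lower values under the KO label, and neither gave 0. A value summed over the gene cannot tell deleted from remaining exons, so it does not check the label. The well-minus-cell difference of Il27ra did not pass the test (0.44 ± 0.24 SE on the log2 scale, limma adjusted p = 0.20; 0.73 and 0.030 with all 94 cells of each plate), nor did its difference between the KO and WT plates (limma adjusted p = 0.997).

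Every well detected more genes than any kept cell of its plate. Genes above 1 FPKM numbered 10801, 10946, 10853 and 10450 in the KO CD8, WT CD8, KO CD4 and WT CD4 wells. The median kept cell had 2507.5, 3167.5, 2218 and 2045 such genes, and the richest single cell of any plate had 7014. The mean difference was 8278 ± 362.1 genes (SD, n = 4 plates), and the exact two-sided sign-flip test gave a p of 1 in 8, the smallest that 4 pairs allow. The spacing of low FPKM values gave an estimated 665522, 432547, 484011 and 787426 reads in the KO CD8, WT CD8, KO CD4 and WT CD4 wells. The median cell had 512745, 518545, 543939 and 532340. This spacing also carries the TMM scaling, so the numbers do not show whether wells and cells had similar depth. The part of depth in the gene numbers was not tested. These read numbers are approximate, since 63.71% to 67.03% of low values in wells and 51.4% to 53.9% in cells lay within 0.1 of a whole read. On this scale 3 reads on a transcript of 2000 bases corresponded to 2.25, 3.47, 3.10 and 1.90 FPKM in the 4 wells, so absence at 1 FPKM means not detected.

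**Figure D1:**
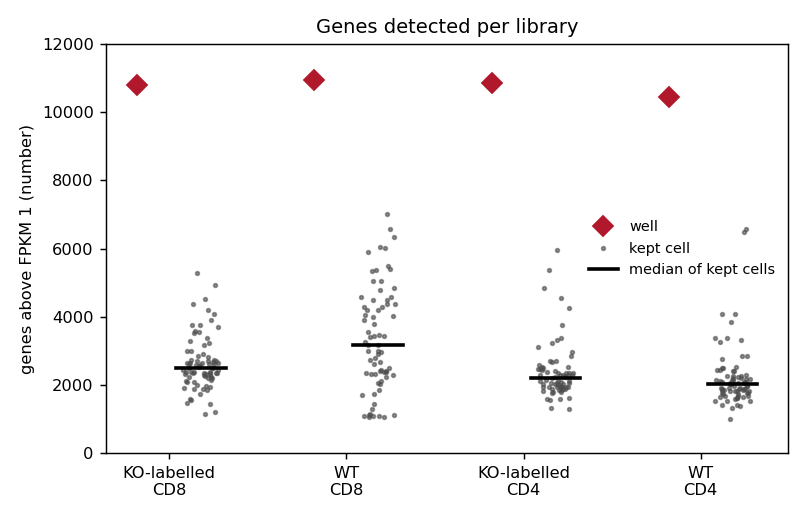
Genes above 1 FPKM in each library, with the population well at the left of each plate and its kept cells at the right, 1 point per cell and a bar at their median. The 4 wells lie between 10450 and 10946 genes, above the richest kept cell of every plate.

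Pooling the cells of a plate recovered nearly all genes that its well detected. Of the genes above 1 FPKM in a well, 95.1%, 95.6%, 94.7% and 94.9% also exceeded 1 FPKM in at least 1 kept cell of the KO CD8, WT CD8, KO CD4 and WT CD4 plates. That left 528, 478, 573 and 529 genes of the wells in no kept cell, while 2078, 3166, 1911 and 2283 genes appeared in some kept cell and not in the well. How many cells held a gene tracked its level in the well. For genes at 1 to 10 FPKM in the well the median share of cells above 1 FPKM was 5%, 6.94%, 5.48% and 5.06%, and at 10 to 100 FPKM it was 17.5%, 25%, 15.1% and 13.9%. At 100 to 1000 FPKM it reached 41.3%, 52.8%, 36.99% and 31.6%, and at 1000 FPKM and above 93.8%, 84.7%, 89.04% and 88.6%. Across 11460 genes the rank correlation of a well with its own plate's cell mean was 0.894, 0.900, 0.881 and 0.864. Each of the KO CD8, WT CD8 and KO CD4 wells correlated best with the cells of its own plate. The WT CD4 well had 0.8647 with the WT CD8 cells and 0.8636 with its own.

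**Figure D2:**
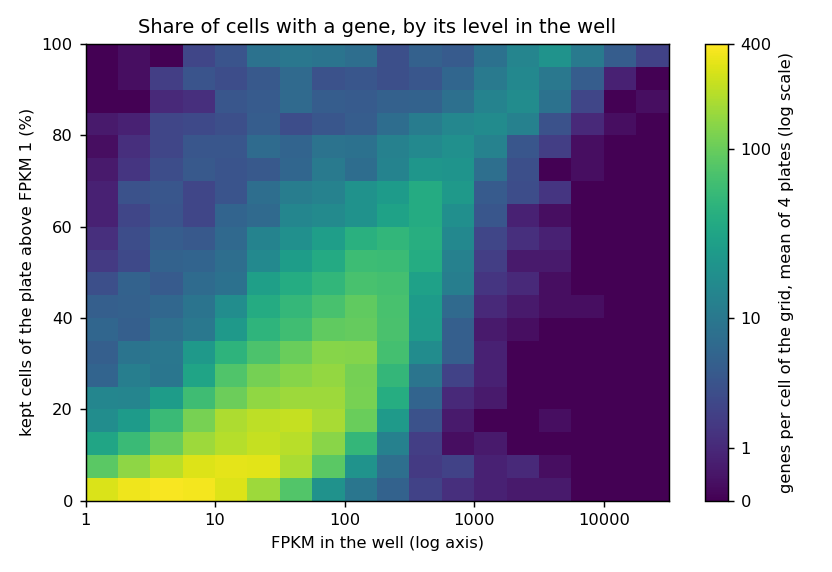
Heat map of genes by their FPKM in the population well (horizontal, log axis) and the share of kept cells of the same plate above 1 FPKM (vertical, percent), coloured by the number of genes in each square averaged over the 4 plates (log scale). The dense band runs from low shares at 1 to 10 FPKM to the top of the plot at 1000 FPKM and above, where the median share lies between 84.7% and 93.8%.

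Gene by gene, the difference between well and mean cell was taken as log2(well FPKM + 1) minus log2(cell mean FPKM + 1), with the 4 plates as 4 paired differences in limma. Of 11460 genes with a mean of at least 1 FPKM, 3405 were higher in the wells (29.7% of genes tested) and 20 were lower (0.175%) at an adjusted p under 0.05. The libraries also differed in scale. FPKM summed to 1.90, 1.73, 2.10 and 2.31 times as much in the KO CD8, WT CD8, KO CD4 and WT CD4 wells as in the mean cell of the plate, and the median gene was higher in the wells by 0.80, 0.67, 0.83 and 0.83 on the log2 scale. After centring each plate's differences on that median, 1 gene was called higher and 1 lower (0.00873% each), with 729 higher (6.36%) and 489 lower (4.27%) at an unadjusted p under 0.05. After scaling each library to a common sum, 8 genes were called higher and 5 lower, and without limma's mean-variance trend none was called in either direction, with 4501 higher and 78 lower at an unadjusted p under 0.05. Differences are therefore given below as measured and, where stated, relative to the median gene, and apart from the 2 genes described next no well-minus-cell call below held after centring. The terms that compare the CD8 with the CD4 plates and the KO with the WT plates were not run on centred differences.

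Rps27 (chr3:90212522-90213651, minus strand), a protein of the small ribosomal subunit, was the gene called higher after centring. It had 4159, 2865, 3488 and 4941 FPKM in the KO CD8, WT CD8, KO CD4 and WT CD4 wells, against cell means of 910, 719, 704 and 927 FPKM. All 4 wells lay above all 4 cell means. Rps27 shares 30.8% of the 31-base words of its longest transcript with other genes, so part of its value is uncertain. Its difference was 2.23 ± 0.13 (SE, n = 4 plates, limma adjusted p = 0.00054), and 1.45 ± 0.11 relative to the median gene (limma adjusted p = 0.0069). Dusp2 (chr2:127336159-127338376, plus strand), a nuclear phosphatase of MAP kinases and an early target of T cell receptor signalling, was the gene called lower after centring. Its wells had 53.8, 51.3, 26.7 and 43.1 FPKM and its cell means were 218.5, 137.7, 102.5 and 122.5 FPKM, so every well lay below every cell mean. It was above 1 FPKM in 38, 36, 16 and 22 kept cells. The difference was -1.70 ± 0.22 (SE, n = 4 plates, limma adjusted p = 0.0019), and -2.48 ± 0.22 relative to the median gene (limma adjusted p = 0.011). Both genes also passed with every library scaled to a common sum, as did Ccl4 (limma adjusted p = 0.027) and Atp5e (limma adjusted p = 0.033), and neither passed without the trend (limma adjusted p = 0.071).

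Ribosomal protein genes stood above the median gene. Of 81 ribosomal protein genes, 79 were called higher in the wells and none lower, against 29.7% and 0.175% of all genes. Their median difference was 0.58 above the median of all genes tested. With each library scaled to a common sum the ribosomal median was 0.40, against 0.76 for cell cycle genes and 0.47 for glycolysis genes, so the order of the lists depended on the scaling. Of these 81 genes, 71 were also higher after centring at an unadjusted p under 0.05, against 6.36% of all genes. Rpl26, of the large subunit, had 682, 602, 757 and 655 FPKM in the KO CD8, WT CD8, KO CD4 and WT CD4 wells, against cell means of 165.8, 254.9, 168.04 and 150.6 FPKM. All 75 nuclear genes of oxidative phosphorylation were called higher, with a median of 0.50 above all genes. Atp5e, a small subunit of ATP synthase, had 348.9, 668, 327.8 and 405 FPKM in the wells and 77.2, 201.7, 69.8 and 82.4 FPKM in the mean cell. The proteasome had 34 of 36 genes called higher (median 0.36 above all genes), glycolysis 16 of 21 (0.50 above) and heat shock 12 of 15 (0.23 above), against 29.7% of all genes. Among glycolytic genes, the lactate exporter Slc16a3 had 86.3, 96.8, 217.5 and 302.4 FPKM in the wells and 8.24, 72.1, 56.03 and 60.5 FPKM in the mean cell. Transcript length moved with these medians: genes whose longest transcript is under 1000 bases had a median of 0.27 above all genes and the class of longest transcripts 0.17 below, and the part of length in the list medians was not tested. When the single highest cell of each gene and plate was left out of the means, the ribosomal median came to 0.27 and the oxidative phosphorylation median to 0.24 above all genes, and the proteasome median to 0.10 above.

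Cell division genes stood above the median gene on 3 plates and below it on the WT CD8 plate. Of 42 cell cycle genes, 28 were called higher, against 29.7% of all genes. The list's median relative to all genes was 0.50 over the 4 plates and -0.28 on the WT CD8 plate. Ccnb2, a mitotic cyclin, had 139.3, 218.5, 244.2 and 258.5 FPKM in the KO CD8, WT CD8, KO CD4 and WT CD4 wells, against cell means of 31.3, 160, 11.3 and 40.9 FPKM. It was detected in 24 of the 72 kept WT CD8 cells, and in 7, 6 and 4 cells of the KO CD8, KO CD4 and WT CD4 plates. The WT CD8 plate also had the highest median number of genes per kept cell, and the part of this in the result was not tested. The difference between the CD8 and CD4 plates in Ccnb2 did not pass the test (-2.19 ± 0.44 SE, limma adjusted p = 0.52).

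Several lists lay near the median gene or below it. Their counts of called genes stand against 29.7% of all genes called higher and 0.175% called lower. Chromatin regulators had 3 of 31 genes called higher, with a median of 0.33 below all genes, and naive and memory genes 3 of 19, with a median of 0.28 below. Replication-dependent histone genes had 3 called higher and 1 lower of 51, with a median of 0.38 below. Immediate-early genes had 15 called higher and 1 lower, Dusp2, of 31, with a median 0.01 above all genes. Nr4a2, a nuclear receptor induced by T cell receptor signalling, had 266.2, 244.1, 75.4 and 35.2 FPKM in the KO CD8, WT CD8, KO CD4 and WT CD4 wells and 76.5, 111.6, 36.4 and 2.74 FPKM in the mean cell. T cell receptor complex genes were called higher in 13 of 15 cases with a median of 0.06 above all genes, close to the offset itself, and co-inhibitory receptors in 10 of 17 with 0.18 above. Interferon-stimulated genes had 22 of 38 called higher (0.13 above), spliceosome genes 27 of 34 (0.14 above), T cell transcription factors 9 of 24 (0.06 below) and chemokine receptors 4 of 14 (0.21 below).

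**Figure D3:**
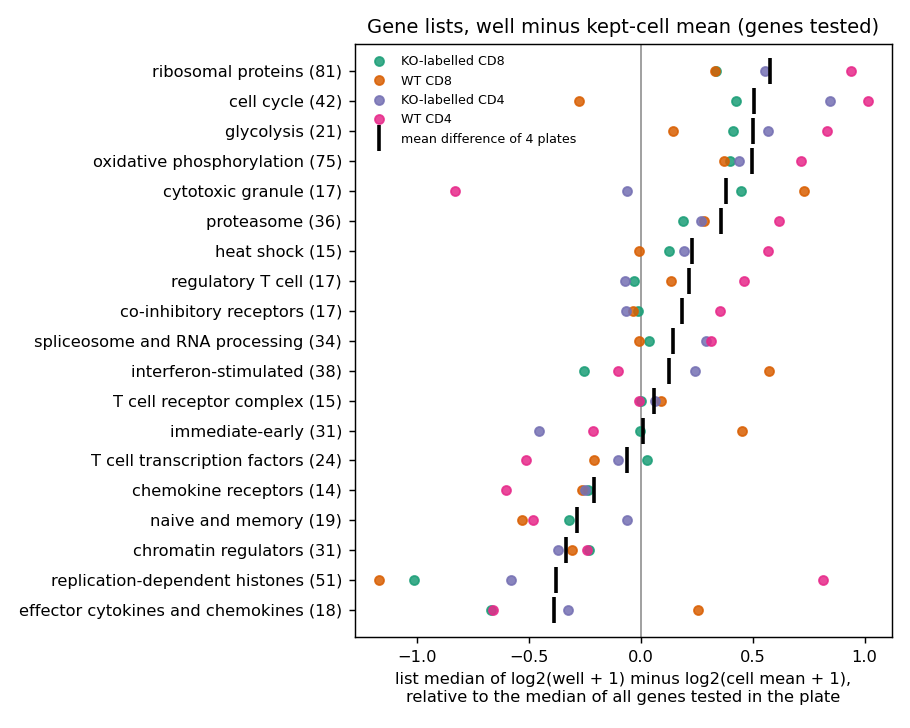
Median well-minus-cell difference of each list of cell functions relative to the median of all genes tested, on the log2(FPKM + 1) scale, with the number of genes tested in brackets. Each point is 1 plate and each bar the median of the genes' mean differences over the 4 plates, which lies at 0.58 for ribosomal proteins and at -0.39 for effector cytokines and chemokines.

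Among effector genes, Ccl4 was higher in all 4 wells than in the mean cell. Ccl4 (chr11:83662584-83664683, plus strand), a chemokine of activated CD8 T cells, had 7472, 4842, 1402 and 80.7 FPKM in the KO CD8, WT CD8, KO CD4 and WT CD4 wells. Its cell means were 1311, 1545, 323.9 and 42.5 FPKM, from 33, 40, 6 and 4 cells above 1 FPKM. All 4 wells exceeded the mean cell of their plate (difference 1.79 ± 0.24 SE, limma adjusted p = 0.0021), although the levels span a wide range over the plates. Tnf, the inflammatory cytokine, was between 22.8 and 564 FPKM in the wells and between 6.15 and 292.03 FPKM in the mean cells, and each well lay above its own cells. Effector cytokines as a list had 4 of 18 genes called higher, against 29.7% of all genes, and a median 0.39 below all genes, and without the highest cell of each gene and plate this median was 0.15 above. Ebi3 (chr17:55952640-55957022, plus strand), the subunit that IL-27 and IL-35 share, had 180.8 and 195.03 FPKM in the KO and WT CD4 wells against cell means of 57.2 and 30.7 FPKM. In the KO and WT CD8 wells it had 10.3 and 5.91 FPKM against 0.53 and 0 FPKM, and its difference was 2.48 ± 0.38 (SE, limma adjusted p = 0.0034). Ebi3 was 1 of 8 regulatory T cell genes called higher of 17 tested, against 29.7% of all genes.

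The granzyme genes Gzmc, Gzmd, Gzme and Gzmf of the chromosome 14 cluster had their highest well values on the CD8 plates. They share 14.8%, 38.2%, 42.1% and 34.9% of their 31-base words with other genes, so the division of reads among them is uncertain. Gzmc (chr14:56231441-56234656, minus strand) had 785 and 5126 FPKM in the KO and WT CD8 wells against cell means of 82.2 and 11.9 FPKM, from 6 and 3 cells. In the KO and WT CD4 wells it had 13.2 and 0 FPKM against cell means of 42.01 and 9.11 FPKM. Gzmd (chr14:56129556-56132608) had 554 and 400 FPKM in the KO and WT CD8 wells against 11.5 and 0 FPKM in the mean cell, and Gzme (chr14:56117626-56120625) had 290 and 59.96 FPKM against 4.01 and 0 FPKM. Neither was detected in a CD4 well. Gzmf (chr14:56205263-56211417) had 1879, 446, 9.05 and 0 FPKM in the KO CD8, WT CD8, KO CD4 and WT CD4 wells against cell means of 218.6, 37.6, 0 and 0 FPKM, and was called higher (limma adjusted p = 0.013), a call lost without the KO CD8, the WT CD8 or the KO CD4 plate (limma adjusted p of 0.079, 0.068 and 0.051). Gzmb, the main granzyme of activated cytotoxic cells, had 3071, 6407, 4375 and 556 FPKM in the wells and 945, 1763, 1932 and 753 FPKM in the mean cell. It was above 1 FPKM in 32, 51, 33 and 20 kept cells. The CD8-minus-CD4 difference of Gzmc was 8.41 ± 1.35 (SE, limma adjusted p = 0.48) and did not pass the test. Of 17 cytotoxic granule genes, 7 were called higher in the wells, against 29.7% of all genes, with a median of 0.38 above all genes. On the KO CD8, WT CD8, KO CD4 and WT CD4 plates that median was 0.45, 0.73, -0.06 and -0.83. Gzmc and Gzme were chosen after their values were seen.

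Gzma (chr13:113093825-113100981, minus strand) differed in direction between the plates. It had 492, 139.2, 1065 and 0 FPKM in the KO CD8, WT CD8, KO CD4 and WT CD4 wells, against cell means of 711, 165.1, 115.3 and 0 FPKM from 9, 8, 3 and 0 cells. The well lay below the mean cell on both CD8 plates and above it on the KO CD4 plate (difference 0.61 ± 0.55 SE, limma adjusted p = 0.43). Without the highest cell of each gene and plate the difference was 2.11 (limma adjusted p = 0.046), in a fit where 6093 genes were called higher.

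Only 2 of 6084 genes (0.0329%) were at 10 FPKM or more in all 4 wells and above 1 FPKM in at most 2% of all kept cells. Oasl1 (chr5:114923240-114937915, plus strand), an interferon-induced member of the oligoadenylate synthetase family, had 21.9, 23.01, 42.6 and 22.7 FPKM in the KO CD8, WT CD8, KO CD4 and WT CD4 wells. It was above 1 FPKM in 2, 2, 2 and 0 kept cells, and its cell means were 9.02, 6.08, 16.7 and 0.0122 FPKM (difference 2.20 ± 0.60 SE, limma adjusted p = 0.025), a call lost without the WT CD8 or the KO CD4 plate (limma adjusted p of 0.0531 and 0.0528). Csf1r, the receptor for macrophage colony-stimulating factor, had 45.3, 35.7, 149.1 and 10.2 FPKM in the wells and was above 1 FPKM in 1, 0, 2 and 1 cells. Its cell means were 7.76, 0, 22.7 and 56.3 FPKM, so the WT CD4 well lay below the mean of its cells, and the difference did not pass the test (limma adjusted p = 0.15). The rule that picked both genes used these levels, so they are a description. With the well threshold at 5 FPKM 13 genes met it, and at 20 FPKM 1 gene.

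Within single plates 1.32% of 7801, 1.17% of 7692, 1.12% of 7800 and 1.34% of 7615 genes at 10 FPKM or more in the KO CD8, WT CD8, KO CD4 and WT CD4 wells were above 1 FPKM in no kept cell of the plate. These sets hardly recurred, with 22 genes found on 2 plates and none on 3 or 4. With 0 such cells, the share of cells with the gene detected at this depth can still be up to 3.75% of 80, 4.17% of 72, 4.11% of 73 and 3.80% of 79 cells, for counting error alone, and the limit does not cover cells that express the gene undetected. Fewer cells of a type in a well and less RNA per cell cannot be told apart.

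Siglech, which marks mouse plasmacytoid dendritic cells, was present in the KO CD8 and KO CD4 wells and above 1 FPKM in no kept cell of those plates. Siglech (chr7:55768178-55778925, plus strand) had 59.5 and 306.2 FPKM in the KO CD8 and KO CD4 wells, against cell means of 0.0139 and 0.0289 FPKM. It was listed at 0 in the WT CD8 and WT CD4 wells, while the WT CD8 cells averaged 56.3 FPKM, nearly all from 1 cell at 4052 FPKM. All 15 genes of the plasmacytoid dendritic list exceeded 1 FPKM in both KO wells, against 8 in the WT CD8 well and 5 in the WT CD4 well. Of all 23420 genes, 10801, 10946, 10853 and 10450 did so in the KO CD8, WT CD8, KO CD4 and WT CD4 wells. On the KO CD8 and KO CD4 plates 7 and 6 of the 15 genes were above 1 FPKM in no kept cell. Of all genes above 1 FPKM in those wells, 528 of 10801 and 573 of 10853 were in no kept cell. On the same plates 16 of 80 and 9 of 73 kept cells held at least 3 of the 15 genes, 14 and 8 of these cells with a CD3 chain. Of the 15 genes, Pacsin1, Bst2 and Irf8 were called higher in the wells, against 29.7% of all genes, and all 3 were also detected in kept cells of every plate, Bst2 in 32 and Irf8 in 18 of the KO CD8 cells. The summed level of the 15 genes was 880, 995, 1487 and 483 FPKM in the KO CD8, WT CD8, KO CD4 and WT CD4 wells and 235.4, 521, 216.4 and 324.1 FPKM in the mean cell. Spib, a transcription factor of B cells and plasmacytoid dendritic cells, had 48.8 and 34.8 FPKM in the KO CD8 and KO CD4 wells and 2.48 and 0 FPKM in the WT CD8 and WT CD4 wells, and no cell mean exceeded 3.42 FPKM. Ly6d had 30.4 and 35.7 FPKM in the KO wells and was listed at 0 in the WT wells, and Cox6a2 had 18.2 and 74.9 FPKM in the KO wells and was likewise listed at 0 in the WT wells. Klk1 had 6.85 and 129.1 FPKM in the KO CD8 and KO CD4 wells and was above 1 FPKM in no kept cell of any plate. The KO-minus-WT difference of Siglech was 9.99 ± 1.32 (SE, limma adjusted p = 0.28) and did not pass the test, and none of 11460 genes passed for this term, with 475 (4.14%) at an unadjusted p under 0.05. The well-minus-cell difference of Siglech over the 4 plates was 2.07 ± 1.89 (SE, limma adjusted p = 0.43), and it was 3.52 (limma adjusted p = 0.043) without the highest cell and 4.70 (limma adjusted p = 0.043) without the WT CD8 plate. Leaving out the highest cell can only lower a cell mean, and 6093 genes were called higher in that fit. The WT CD8 plate had the lowest Siglech difference, so neither change is a separate test of Siglech. Spib, Ly6d and Cox6a2 were chosen after their values were seen.

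The WT CD8 well held genes of macrophages and red blood cells at levels above those of its mean kept cell. Lyz2 (chr10:117277331-117282321, minus strand) had 724, 1655, 2959 and 26.4 FPKM in the KO CD8, WT CD8, KO CD4 and WT CD4 wells. Its cell means were 5.06, 0, 753 and 690 FPKM, from 1, 0, 7 and 5 cells, and 1 cell carried 97.9% of the WT CD4 sum. Its well-minus-cell difference was 3.73 ± 1.93 (SE, limma adjusted p = 0.17), and it was 5.95 (limma adjusted p = 0.0077) without the highest cell and 6.52 (limma adjusted p = 0.0088) without the WT CD4 plate. The fit without the highest cell called 6093 genes higher, since this step can only lower a cell mean. The WT CD4 plate was the only plate with the Lyz2 well below its mean cell, so neither change is a separate test of Lyz2. The CD8-minus-CD4 difference of Lyz2 was 10.14 ± 1.84 (SE, limma adjusted p = 0.48) and did not pass the test. Of 24 macrophage and monocyte genes, 7 were at 10 FPKM or more in the WT CD8 well with no kept cell above 1 FPKM. The same held for 1.17% of the 7692 genes at that level in this well. Among the 7 were Lyz1, Fcgr3, Fcgr1, Ms4a7 and Cd14, the last with 129.4 FPKM. On the KO CD8, KO CD4 and WT CD4 plates 1, 0 and 0 of the 24 genes met this rule. Other genes of the list were present in the cells, and 50 of the 72 kept WT CD8 cells held at least 3 of the 24, all 50 with a CD3 chain. The summed level of the list was 7261, 7936, 10948 and 2022 FPKM in the KO CD8, WT CD8, KO CD4 and WT CD4 wells, against 3678, 2030, 3834 and 4015 FPKM in the mean cell. Without the cell of highest list sum on each plate the mean-cell sums were 3472, 1860, 2574 and 1262 FPKM. As measured, the WT CD4 well lay above its cells after that change and below them before it. The excess after the change was smaller than the 2.31-fold difference in summed FPKM between that well and its mean kept cell. In the WT CD8 well the haemoglobin genes Hba-a1, Beta-s and Hba-a2 had 4230, 2290 and 400 FPKM, against at most 4.54 FPKM in any other well and 5.24 FPKM in any cell mean. Hba-a1 was above 1 FPKM in 1 kept WT CD8 cell, and Beta-s and Hba-a2 in none. Hba-a1 and Hba-a2 are near-identical copies, so the division of reads between them is uncertain. Ifitm1 had 594 FPKM in the WT CD8 well and 0 in its 72 kept cells, and Il1b had 374 FPKM against 0.

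As measured, antigen presentation genes summed to more in the well than in the mean cell on every plate but the WT CD4 one. Cd74, the invariant chain of MHC class II, had 699, 1428, 1150 and 140 FPKM in the KO CD8, WT CD8, KO CD4 and WT CD4 wells. Its cell means were 49.2, 25.95, 455 and 468 FPKM, from 4, 9, 26 and 19 cells, so the well lay above the mean cell on 3 plates and below it on the WT CD4 plate (difference 2.28 ± 0.95 SE, limma adjusted p = 0.099). The difference was 4.36 (limma adjusted p = 0.0057) without the highest cell and 3.62 (limma adjusted p = 0.0070) without the WT CD4 plate. Neither change is a separate test of Cd74. The first can only lower a cell mean and gave 6093 genes called higher, and the second leaves out the plate of opposite sign. The 10 MHC class II genes summed to 3769, 9824, 6968 and 320.7 FPKM in the wells and to 463, 140, 3603 and 2149 FPKM in the mean cell. The ratio of these sums was 8.15, 70.3, 1.93 and 0.149 on the KO CD8, WT CD8, KO CD4 and WT CD4 plates. For all FPKM it was 1.90, 1.73, 2.10 and 2.31, so the KO CD4 excess lay within the difference in scale. Without the cell of highest list sum on each plate the mean-cell sums were 109.3, 96.8, 1935 and 154.04 FPKM. The WT CD4 well then lay above its cells as measured, by less than the 2.31-fold difference in scale of that plate. H2-DMa and H2-Oa, which load and tune class II molecules, were the 2 of the 10 genes called higher, against 29.7% of all genes. H2-DMa had 126.5, 229.5, 245.5 and 84.2 FPKM in the wells and 65.7, 14.1, 113.5 and 49.6 FPKM in the mean cell (limma adjusted p = 0.029; 0.062 without the KO CD4 plate).

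**Figure D4:**
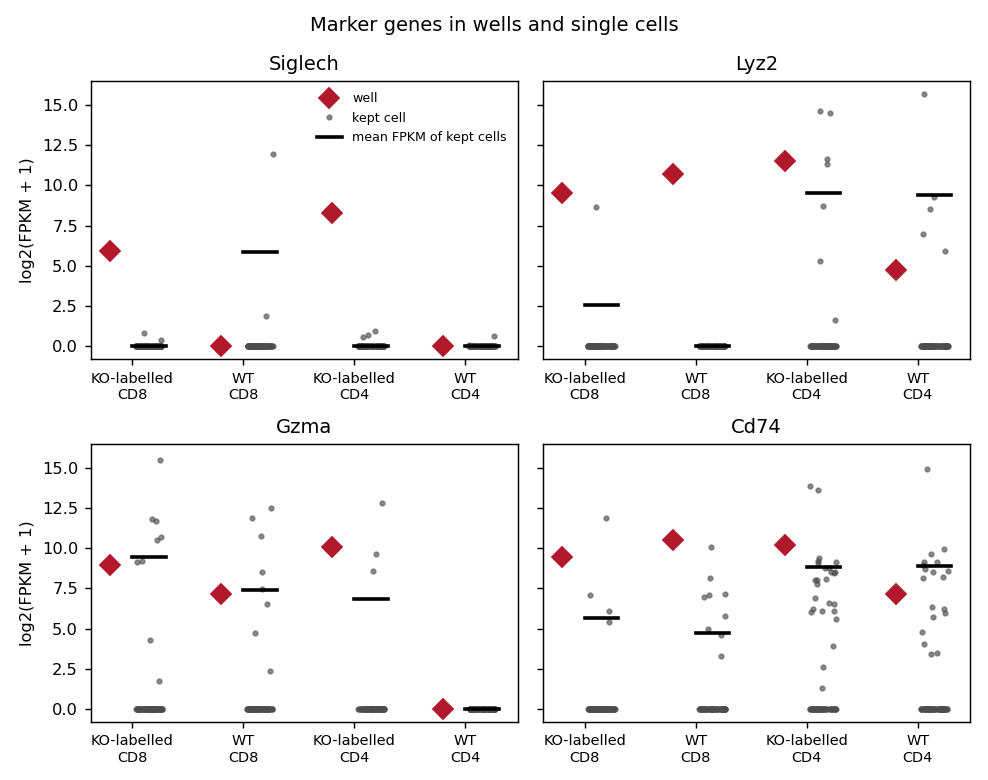
Levels of Siglech, Lyz2, Gzma and Cd74 on each plate as log2(FPKM + 1), with the population well (diamond) left of the kept cells, 1 dot per cell and a bar at the mean FPKM of the cells. Siglech is at 59.5 and 306.2 FPKM in the KO wells and at 0 in the WT wells, and the cell means of Lyz2 on the CD4 plates rest on 7 and 5 cells.

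**Figure D5:**
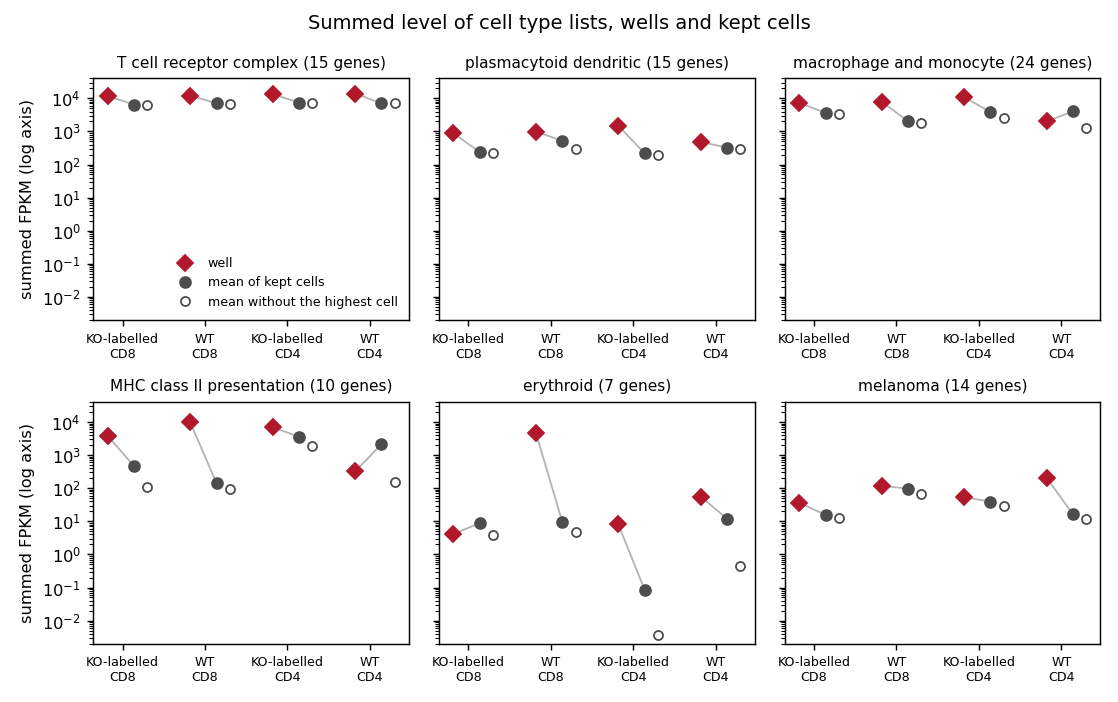
Summed FPKM (log axis) of the T cell receptor complex and of 5 marker lists of other cells on each plate, with the population well (diamond) left of the mean kept cell (filled circle) and of the mean without the cell of highest list sum (open circle). MHC class II genes reach 9824 FPKM in the WT CD8 well against 140 FPKM in its mean cell, and erythroid genes 4682 FPKM against 9.52 FPKM.

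Natural killer and innate lymphoid genes summed to 4722, 1600, 1878 and 619 FPKM in the KO CD8, WT CD8, KO CD4 and WT CD4 wells and to 2207, 1210, 677 and 381.4 FPKM in the mean cell. T cells also express several genes of this list, and 2 of its 16 tested genes, Cd7 and Gata3, were called higher, against 29.7% of all genes. The difference of Gata3 was 0.88, and -0.16 with each library scaled to a common sum. Melanoma genes summed to 36.3, 120, 53.7 and 211.05 FPKM in the KO CD8, WT CD8, KO CD4 and WT CD4 wells and to 15.7, 96.6, 39.3 and 16.1 FPKM in the mean cell. The pigment cell genes Mlana and Tyrp1 had 44.04 and 26.6 FPKM in the WT CD4 well and were above 1 FPKM in none of its 79 kept cells. The B cell gene Fcrla had 37.5, 8.23, 18.3 and 0 FPKM in the wells and was listed at 0 in the cell mean of every plate. Of the 10 B cell genes measured, 7, 6, 8 and 7 were listed at 0 in the KO CD8, WT CD8, KO CD4 and WT CD4 wells. Of the other lists, neutrophil genes reached 413 FPKM in the WT CD8 well against 12.6 FPKM in its mean cell. Most of the 413 FPKM came from Il1b, and 7 of the 11 neutrophil genes were listed at 0 in that well. Gamma-delta T cell genes summed to 5.21, 0, 23.8 and 0 FPKM in the wells against 70.98, 0.129, 82.9 and 0.414 FPKM in the mean cell.

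The 12 genes with the highest called differences were mostly of this kind, present in wells and in few cells. Lif, a cytokine of the IL-6 family, had 23.05, 1.18, 34.7 and 18.8 FPKM in the KO CD8, WT CD8, KO CD4 and WT CD4 wells and at most 0.40 FPKM in a cell mean (difference 3.50 ± 0.75 SE, limma adjusted p = 0.010; 0.0513 without the KO CD4 plate). Clec4e (chr6:123281789-123289870, minus strand), a macrophage lectin that senses mycobacterial glycolipid, had 8.34, 21.0, 25.3 and 0.50 FPKM in the wells and was listed at 0 in the cell mean of every plate. Plaur, the urokinase receptor, had 65.6, 23.1, 116.3 and 19.99 FPKM in the wells and 0, 8.58, 26.7 and 0.85 FPKM in the mean cell. Cd24a had 180 FPKM in the WT CD8 well and 19.8, 13.6 and 9.08 FPKM in the KO CD8, KO CD4 and WT CD4 wells. The other 8 were Smpdl3b, Mafg, Wdr54, Pid1, Lad1, the processed pseudogene Gm11517, the MHC class I gene Gm8909 and H2-Bl, annotated as a polymorphic pseudogene. The sequences of H2-Bl and Gm8909 are partly shared with other genes, and they were above 1 FPKM in 15.8% and 27.6% of kept cells. None of the 12 passed after centring (limma adjusted p between 0.16 and 0.39).

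In the reverse direction, 2 of 3341 genes (0.0599%) exceeded 1 FPKM in at least 20% of the kept cells of every plate and stayed under 1 FPKM in all 4 wells, namely Zfp839, a zinc finger gene, and Apol6, of the apolipoprotein L family. Zfp839 had 0.69, 0, 0 and 0 FPKM in the KO CD8, WT CD8, KO CD4 and WT CD4 wells and cell means of 1.33, 1.78, 0.743 and 4.53 FPKM, from 25, 26, 17 and 16 cells. Apol6 had 0.48, 0, 0 and 0.57 FPKM in the wells and cell means of 0.607, 0.656, 0.429 and 0.483 FPKM. With 3 of 4 plates required, Cyp2e1, a cytochrome P450, led with 26, 35, 33 and 30 cells and wells at 0, 0, 1.81 and 0 FPKM. The well values of these 3 genes lie under that of 3 reads on a transcript of 2000 bases. The cell values were low as well. In cells above 1 FPKM, the plate medians were 1.485 to 1.85 FPKM for Apol6, 1.55 to 3.11 FPKM for Zfp839 and 4.72 to 5.78 FPKM for Cyp2e1. The Apol6 value of the WT CD4 well lay above the mean of its cells. Within single plates 1.45% of 4907, 1.85% of 6389, 1.43% of 4256 and 1.34% of 3955 genes found in at least 20% of the KO CD8, WT CD8, KO CD4 and WT CD4 cells were of this kind, and the median of their cell means was 0.959, 1.45, 1.04 and 0.939 FPKM. The highest of their cell means was 620, 589, 123.96 and 38.3 FPKM, that of Gm9846 on both CD8 plates. Gm4070 was listed at 0 in the KO CD8 well and was above 1 FPKM in 58 of 80 cells there with a mean of 72.4 FPKM, but it shares 99.3% of its 31-base words with other genes and is uncertain. Of these genes 53 recurred on 2 plates, 19 on 3 and 2 on all 4. Of those in the annotation 65.1% were protein coding, against 95.95% of all genes tested, and 12.6% shared at least 50% of their 31-base words with other genes, against 6.07%.

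Mir703 was the most abundant of the 3 KO CD4 genes singled out for being in many cells and not in the well, and it is the one whose sequence helps in reading the value, because the annotated gene is far shorter than a Smart-seq2 cDNA. Mir703 lies at chr5:98475556-98475664 on the minus strand (RefSeq, GRCm38.p6), and its hairpin is shown with the mature sequence in capitals, followed by the mature sequence with its seed in capitals.
Mir703 hairpin: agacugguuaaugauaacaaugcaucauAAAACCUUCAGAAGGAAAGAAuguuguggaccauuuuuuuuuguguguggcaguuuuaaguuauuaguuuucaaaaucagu
mmu-miR-703: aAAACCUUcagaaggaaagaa
It was listed at 0 in the KO CD4 well and had 68.8, 63.5 and 67.9 FPKM in the KO CD8, WT CD8 and WT CD4 wells. Its cell means were 45.4, 50.7, 18.6 and 24.2 FPKM on the KO CD8, WT CD8, KO CD4 and WT CD4 plates, from 65, 52, 43 and 51 cells. A polyadenylated-RNA library does not assay mature miRNAs, so these values count reads assigned to the hairpin's interval. Mir703 shares 50.6% of its 31-base words with other genes, so its values are uncertain, and its difference did not pass the test (limma adjusted p = 0.67).

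The genes called lower in the wells were led by Gm9846, a predicted gene that the files give by symbol alone. It was listed at 0 in the KO and WT CD8 wells and had at least 185.9 FPKM in both CD4 wells, against cell means of 620 and 589 FPKM on the CD8 plates and 454 and 444 FPKM on the CD4 plates. It was above 1 FPKM in 51, 39, 38 and 41 kept cells of the KO CD8, WT CD8, KO CD4 and WT CD4 plates. Its difference was -5.24 ± 1.36 (SE, limma adjusted p = 0.020), and it was -3.89 and -3.91 without the KO CD8 and the WT CD8 plate (limma adjusted p of 0.065 and 0.070). The CD8-minus-CD4 term was -8.01 (limma adjusted p = 0.00071), and Gm9846 was the single gene of 11460 called for that term (0.00873%), with 740 (6.46%) at an unadjusted p under 0.05. With 4 differences and 2 terms, this p rests mostly on the spread that limma takes from other genes. The term rests on the 2 CD8 wells listed at 0, since the cell means of the lineages differed far less than the wells. Gm9846 was no longer called for that term with all 94 cells of each plate in the means or with no filter on low values. Snx20, a sorting nexin of leukocytes that binds PSGL-1, had 4.19, 61.1, 18.6 and 10.7 FPKM in the wells and 51.7, 81.3, 105.2 and 157.7 FPKM in the mean cell, from 18, 29, 25 and 33 cells (limma adjusted p = 0.0082). Tesc, a calcium-binding protein, had 0, 0, 2.18 and 2.69 FPKM in the wells and 4.97, 11.3, 18.4 and 13.6 FPKM in the mean cell. Rnf128, an E3 ligase linked to T cell anergy, was listed at 0 in all 4 wells and had cell means of 4.14, 3.84, 9.41 and 2.09 FPKM from 1, 4, 3 and 1 cells. The other 8 were Tmem254c, Thap11, Hist1h2ai, Tysnd1, Socs4, Gm3435, Gm16845 and Ccl8. Tmem254c, Hist1h2ai and Gm3435 share 100%, 92% and 94% of their 31-base words with other genes and are uncertain. Ccl8 rested on 7 cells, and without the highest cell of each plate its difference was 0.80.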

How the data were processed

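Values were the authors' deposited TMM-normalised FPKM of 23420 genes in 380 libraries. Per the submitters' processing notes, reads were aligned to mm10 and quantified with Bowtie and RSEM, with versions not given in the sources used here. Every column matched a sample title, and no 2 libraries held identical values. Wells and cells were paired by the plate in their titles. Cells with at least 1000 genes above 1 FPKM were averaged per plate, and log2(FPKM + 1) differences were tested with limma 3.58.1 (R 4.3.3, eBayes with trend, Benjamini-Hochberg) over 11460 genes with a mean of at least 1 FPKM over the 4 wells and 4 cell means. Fold changes of low genes are understated on this scale. A second limma model had lineage and genotype label as terms, and with 4 differences its p-values rest mostly on the spread of other genes. The exact sign-flip test compared gene numbers. The limma steps were tested on simulated data. Tables were handled with Python 3.11.15 and pandas 2.3.3.

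Named genes were the 12 highest and 12 lowest differences called with 1 sign on all 4 plates, the leading genes of each well-only and cells-only set, Siglech, Lyz2, Gzma, Cd74, Il27ra and up to 4 called members of each list, from the uncentred fit. Where a gene outside this rule is named, it was chosen after its values were seen. Of 38 gene lists, the mitochondrially encoded one had no gene in the matrix. The members and lists were chosen with earlier results of these data known. Coordinates are from GENCODE M21 on GRCm38, which held 21777 of the symbols. Read numbers, which include the TMM scaling, were taken from the step between low FPKM values of a library, and intervals and limits cover counting error only. The alternatives were other pseudocounts and filters, centring, rescaling to a common sum, other sets of cells, an unpaired fit, no trend, leaving out a plate, and kept cells with a CD3 chain, the last chosen after seeing the data.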

Additional observations from a re-analysis of the deposited data

Results flagged for a closer look

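Values below are well-minus-cell differences on the log2(FPKM + 1) scale. Of results with 1 value on each of 4 plates, chance alone places about 1 in 20 beyond the limit used for a single plate standing apart, and many of these genes were named because they were extreme on 1 plate. Reading cell type lists as measured and the other lists relative to the median gene was decided after first results were seen.

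The WT CD8 plate stood apart from the other plates at 9.22 for Ifitm1, 8.65 for Hba-a2, 7.03 for Cd14, 3.93 for H2-DMa, 1.24 for Rpl26 and -1.30 for Zfp9. The WT CD4 plate stood apart at 5.49 for Mlana, 4.55 for Oasl1, 3.83 for Hist2h2aa1, 3.82 for Lad1 and 0 for Gzmf. The KO CD4 plate did so at 3.20 for Gzma, 3.89 for H2-Oa and -2.94 for Gm5860, and the KO CD8 plate at 6.204 for Cacnb3. Among lists, the gamma-delta T cell median was -2.04 on the KO CD4 plate, the co-inhibitory receptor median 0.35 and the chemokine receptor median -0.60 on the WT CD4 plate, the last 2 relative to the median gene.

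Other results had opposite signs in the 2 kinds of plate. For CD8 minus CD4 plates these were 1.48 for Cd8a, 8.41 for Gzmc, 5.18 for Ifitm1, -2.49 for Zfp202, 4.80 for Cercam and 2.30 for 1700048O20Rik. The list medians that did so were cytotoxic granule genes (1.03) and keratinocyte genes (-0.83). For KO minus WT plates they were 9.99 for Siglech, 5.54 for Spib, -3.56 for Hist1h2ac, 1.99 for the fibroblast median and -0.35 for the regulatory T cell median. Siglech had a limma adjusted p of 0.28 for its term, Gzmc 0.48 and Spib 0.92, and the list differences were not tested. The CD8-minus-CD4 term of Gm9846 (-8.01) passed the test (limma adjusted p = 0.00071), and it rests on the CD8 wells listed at 0.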

How the results depend on the processing

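The number of genes called higher in the wells, 3405 as reported, was 1844 with no filter on low values, 5200 with all 94 cells of each plate, 1599 with cells of at least 2000 genes and 6093 without the highest cell of each gene and plate. It was 8 with each library rescaled to a common sum, 1 with centred differences and 0 with no mean-variance trend, and leaving out 1 plate in turn gave 2083 (without the KO CD4 plate) to 2781. The number called lower, 20 as reported, was 13 with cells of at least 2000 genes, 13 without the highest cell, 13 without the plate pairing (no replicate block), 5 rescaled, 1 centred, 0 with no trend, and 8 (without the KO CD4 plate) to 21 with 1 plate left out. The unpaired fit called 2443 higher. The CD8-minus-CD4 term, with 1 call, had 0 with no filter, 0 with all 94 cells and 9 without the highest cell, and the KO-minus-WT term had 0 calls in every fit run. The 2 genes high in wells and in few cells became 13 with wells at 5 FPKM, 1 with wells at 20, 1 with detection above 0, 1 with cells of at least 2000 genes, 1 rescaled, 4 with CD3-chain cells, and 7 to 23 with 1 plate left out. The 2 genes in many cells and near 0 in wells became 19 with wells under 2 FPKM, 0 with wells at 0, 0 with detection above 10 FPKM, 1 with all 94 cells, 15 rescaled, and 6 to 8 with 1 plate left out. The gene number difference of 8278 was 5788.5 above 10 FPKM, 7863 rescaled and 8159 to 8444.5 with 1 plate left out. Of the genes called higher, 25.5% lay below 0 on rescaling and 8.31% with centred differences. Among them, Cd27 (-0.079), Ctla4 (-0.13) and Ccr7 (-0.085) did so on rescaling, and Ccl8, called lower, changed to 0.80 without the highest cell. Il27ra and Gzma, which were not called, came to -0.61 and -0.19 on rescaling and to -0.34 and -0.17 when centred. The causes were not tested beyond the construction of each setting. Of the values of genes named in the text, 405 were no longer called, 36 became called, and 59 changed sign without being called in either fit, 11 of these without the WT CD8 plate. The rest kept their sign and their side of the threshold, apart from the 4 called values that changed sign. Of the list medians relative to all genes, 46 values moved by more than the SD over plates and 545 did not, 12 of the 46 with no filter and 8 without the highest cell. Depth limits what a well can show to about the 3-read levels given above.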
